A study of Mus musculus with 21 samples.

Results

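Cytokine and survival receptor transcripts, together with the transcript of the cytokine interleukin-10 (IL-10), were measured in 3 B cell subsets of the mouse peritoneal cavity. The set comprised 10 of the 56953 genes counted in each library: Il5ra, Csf2rb, Csf2rb2, Il9r, Tnfrsf13b, Tnfrsf13c, Tnfrsf17, Il10, Il10ra and Il4ra. They were taken by gene symbol for their roles in maintaining B-1 and B-2 cells, not for their values. Earlier results of these data were known when they were chosen, and each symbol matched 1 gene identifier. B-2 cells and both B-1 subsets had been purified by sorting from C57BL/6 mice, either TET2-KO or WT. The 21 RNA-sequencing libraries comprised 4 B-1a WT, 4 B-1a TET2-KO, 4 B-1b WT, 3 B-1b TET2-KO, 2 B-2 WT and 4 B-2 TET2-KO libraries. The TET2-KO was global, so every cell of the animal lacked exons 8 to 10 of Tet2, which encode the catalytic region of this DNA demethylating enzyme, and the other cells that make cytokines for B cells lacked it too. WT mice carried no such deletion, no group received a treatment, and the mice are described only as young. The sort gate took B-1 cells as low for IgD, CD23 and B220, and surface CD5 parted B-1a (CD5+) from B-1b (CD5-) cells. In the GRCm39 coordinates of the files, Il5ra spans chr6:106687318-106725998, Csf2rb chr15:78209952-78238047 and Csf2rb2 chr15:78166707-78189921. Tnfrsf13b spans chr11:61017581-61040198, Tnfrsf13c chr15:82105944-82108570 and Tnfrsf17 chr16:11131676-11137938. Il10 spans chr1:130947582-130952711, Il10ra chr9:45165135-45180447, Il4ra chr7:125151292-125178646 and Il9r chr11:32137541-32150279. Values are sums over all exons of each gene.

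B-1 cells are long-lived, self-renewing B cells of the body cavities that make natural IgM. IL-5 supports them through a receptor built from a ligand-binding alpha chain, encoded by Il5ra, and the common beta chain, encoded by Csf2rb, which also serves the receptors for IL-3 and GM-CSF. The mouse has a close copy of that chain, Csf2rb2, which serves IL-3 only. BAFF, a survival factor made largely by myeloid and stromal cells, binds BAFF-R (Tnfrsf13c), TACI (Tnfrsf13b) and, more weakly, BCMA (Tnfrsf17). BAFF-R is the main survival receptor of mature B-2 cells, TACI responds also to APRIL and is plentiful on B-1 and marginal zone B cells, and BCMA marks plasma cells. IL-10, which dampens myeloid and T cell responses, is made by a part of the peritoneal B-1a cells and acts through a receptor whose ligand-binding chain is encoded by Il10ra. Il4ra and Il9r encode the ligand-binding chains for IL-4 and IL-9, which both pair with the common gamma chain.

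Since TET2 oxidizes methylated cytosine, mostly at CpG, the start regions of the 3 genes that were higher in B-1a than in B-2 cells and have an entry are shown with that of Tnfrsf13c, which was not. Each is the RefSeq window of 300 bases, from 250 bases before the annotated start to 50 bases after it, written 5′ to 3′ on the strand of the gene, in build GRCm38.p6, with CpG in capitals. Il5ra lies at chr6:106748988-106749287 on the minus strand, Csf2rb2 at chr15:78305672-78305971 on the minus strand, Tnfrsf13b at chr11:61126505-61126804 on the plus strand and Tnfrsf13c at chr15:82224331-82224630 on the minus strand.
Il5ra: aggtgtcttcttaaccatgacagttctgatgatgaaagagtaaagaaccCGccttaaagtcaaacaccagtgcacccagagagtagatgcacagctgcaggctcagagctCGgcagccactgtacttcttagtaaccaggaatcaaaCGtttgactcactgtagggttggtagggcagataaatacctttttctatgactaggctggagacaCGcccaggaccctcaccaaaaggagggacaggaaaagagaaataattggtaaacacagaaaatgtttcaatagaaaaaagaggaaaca
Csf2rb2: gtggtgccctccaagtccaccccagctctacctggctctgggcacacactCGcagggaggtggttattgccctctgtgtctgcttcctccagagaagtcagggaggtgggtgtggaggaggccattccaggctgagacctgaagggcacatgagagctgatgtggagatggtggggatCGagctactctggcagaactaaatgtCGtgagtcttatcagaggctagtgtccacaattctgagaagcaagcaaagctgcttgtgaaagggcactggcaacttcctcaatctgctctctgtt
Tnfrsf13b: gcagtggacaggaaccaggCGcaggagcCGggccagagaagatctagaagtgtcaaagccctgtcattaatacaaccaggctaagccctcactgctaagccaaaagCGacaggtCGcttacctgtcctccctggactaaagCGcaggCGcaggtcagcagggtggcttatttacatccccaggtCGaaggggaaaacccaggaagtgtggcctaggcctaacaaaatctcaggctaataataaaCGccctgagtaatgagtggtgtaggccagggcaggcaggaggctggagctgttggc
Tnfrsf13c: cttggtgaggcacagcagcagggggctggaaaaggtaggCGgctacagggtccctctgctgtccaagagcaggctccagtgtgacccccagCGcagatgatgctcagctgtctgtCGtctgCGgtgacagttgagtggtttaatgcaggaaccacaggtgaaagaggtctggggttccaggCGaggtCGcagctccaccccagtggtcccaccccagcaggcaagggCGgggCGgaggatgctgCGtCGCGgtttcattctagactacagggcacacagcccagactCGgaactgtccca
Of the 10 genes, 7 had a window among the 32851 of this length, and Csf2rb, Il10 and Il10ra had none. The window held 3 CpG at Csf2rb2, 4 at Il5ra, 5 at Il9r, 6 at Tnfrsf17, 8 at Tnfrsf13b, 12 at Tnfrsf13c and 25 at Il4ra, against a median of 7 over all windows. For Il5ra, 31.4% of all windows held fewer CpG, and for Il4ra 81.6% did. The letters TTCNNNGAA, the motif of STAT factors that the IL-5 and IL-3 receptors use, were searched with overlaps allowed and read the same on both strands in this form. They occurred once in these 7 windows, 15 bases before the start of Csf2rb2 as TTCTGAGAA, and in 8.3% of all windows. The letters CACGTG, the E-box read by Bhlhe41, occurred in none of the 7 and in 7.15% of all. No methylation was measured in these libraries.

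The libraries held 9667187 to 24152518 counts in genes (median 17425219). Tet2 itself ranged from 8.46 to 30.3 normalized counts per 1000000 gene counts (CPM) and did not differ by the edgeR test between genotypes. The log2 fold change in TET2-KO was 0.45 (SE 0.35) in B-1a, 0.29 in B-1b and 0.45 in B-2 cells, and -0.05, -0.09 and 0.39 once WT 1 and WT 2 were left out (1 WT library then remains in B-2 cells). The whole-gene count includes exons outside the deletion, so it cannot check the genotype. The transcripts of B cells were abundant in all libraries. Those of macrophages were found in all as well, and their 14 markers summed to 4530 to 30983 CPM. Most of this was Lyz2, at 3830 to 27216 CPM, whereas Csf1r measured 15.4 to 144 and C1qb 185 to 1382 CPM. Among TET2-KO libraries, 7 B-1 markers summed to 703 to 896 CPM in B-1a, 581 to 722 in B-1b and 125 to 204 in B-2 cells. In 3 libraries the sum of the B-2 markers went against the label, and in others Cd5 did. The 6 B-2 markers summed to 7215 CPM in B-1a WT 1 and 5899 in B-1b WT 2, and only to 1226 in B-2 WT 1, where B-2 TET2-KO libraries had 3434 to 6519. Cd5, the gene of the surface marker that parted the B-1 subsets, measured 1.64 CPM in B-1a WT 2 and 18.7 in B-1b WT 1. It measured 15.9 to 21.1 CPM in B-1a and 2.95 to 5.10 in B-1b TET2-KO libraries. All 5 libraries labelled WT 1 or WT 2 also had less signal at 591 vomeronasal receptor genes, which belong to the nose and served as a gauge of counts unrelated to B cells, namely 4.02 to 11.4 CPM against 45.7 to 995 in the other 16 libraries. Labels were kept, the genotype differences named are given with and without these 5 libraries, and the subsets were compared among TET2-KO libraries. B-2 TET2-KO 2 and 4 had the fewest counts and the most vomeronasal signal, and B-1b TET2-KO 3 the fewest genes with a count (17816).

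**Figure D1:**
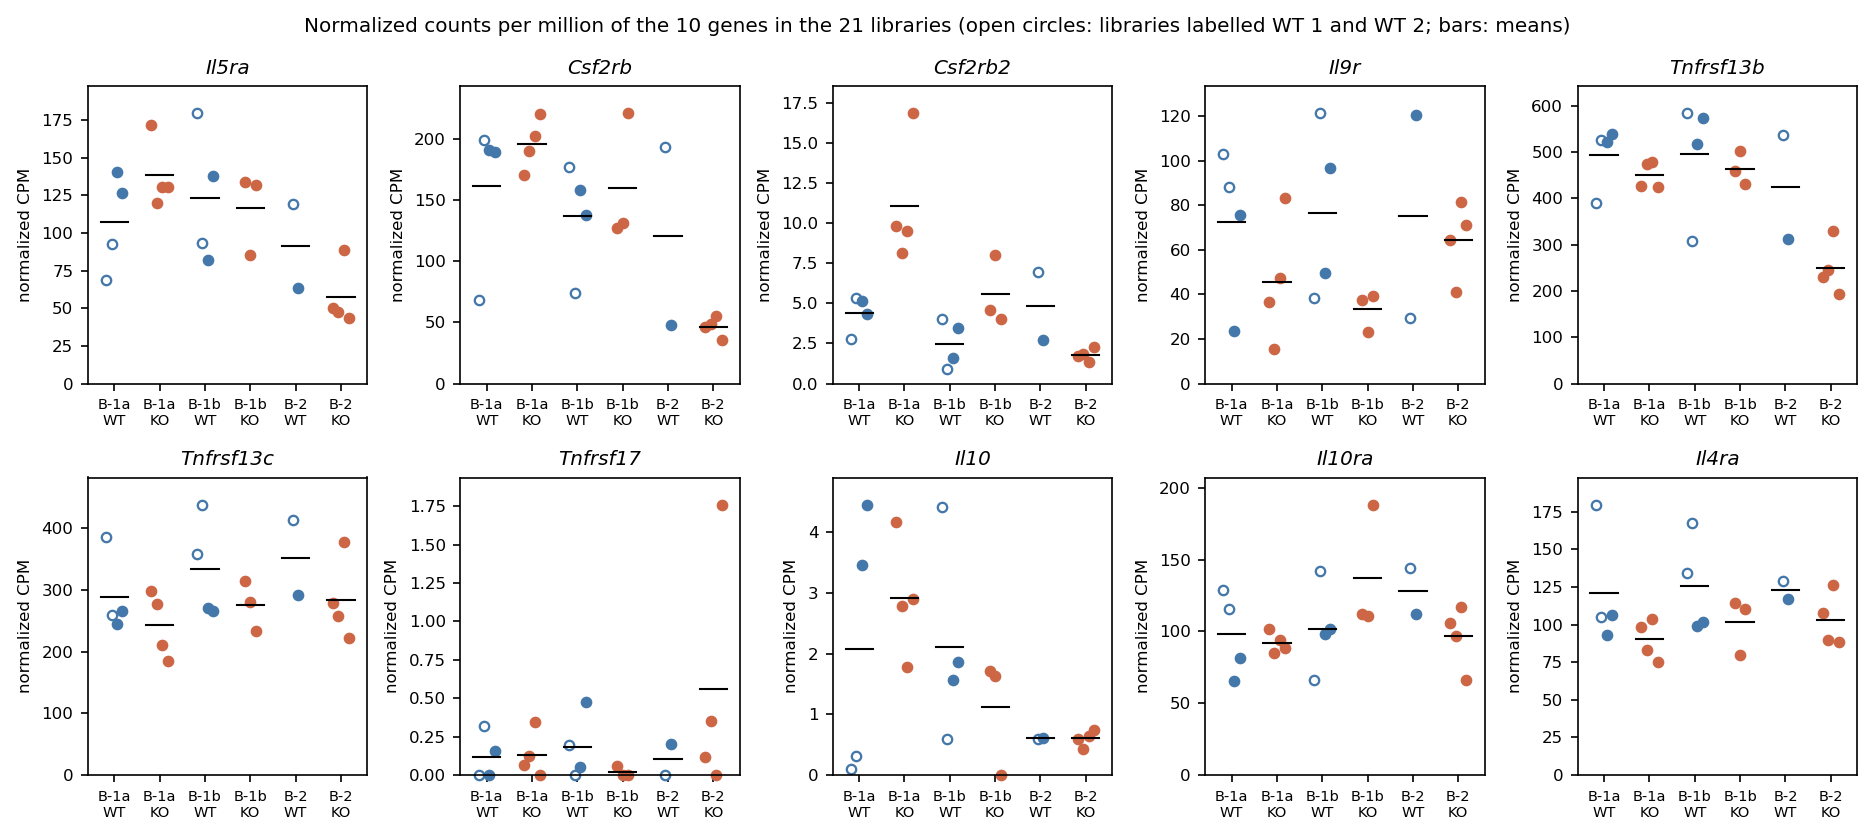
Normalized CPM (vertical axes, from 0) of the 10 genes in each of the 21 libraries, grouped by subset and genotype (KO: TET2-KO). Each circle is 1 library, open for those labelled WT 1 and WT 2, and bars are group means; Csf2rb lay between 35.2 and 55.3 CPM in B-2 TET2-KO cells and between 127 and 221 in B-1b TET2-KO cells.

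Differences between the subsets are given first. Fold changes are from the edgeR quasi-likelihood fit over the 11 TET2-KO libraries and p-values were adjusted by Benjamini-Hochberg over all genes tested, with a call at an adjusted p under 0.05. The labels do not say that replicates came from separate animals, so p-values cover only the spread between these libraries. Between B-1a and B-2 cells, 4 of the 9 genes tested were called, all higher in B-1a cells, where 5.82% of all 18555 genes were called. Between B-1b and B-2 cells, 2 of 9 were called, both higher in B-1b cells, against 2.15% of all genes. Between B-1a and B-1b cells none of the 9 was called, against 0.205% of all genes. By edgeR 2 of them had an unadjusted p under 0.05, and DESeq2 called none. Tnfrsf17 did not pass the filter on low counts. The median log2 fold change of the 9 genes was 0.82, 0.84 and 0.25 in these 3 comparisons, beside -0.05, -0.10 and 0.04 over all genes tested. Of the calls over all genes, 604 were higher in B-1a and 476 in B-2 cells, and 282 were higher in B-1b and 117 in B-2 cells. DESeq2 split them as 852 and 2626, and as 539 and 2333, with medians of -0.42 and -0.43 over all genes. The signs of the 9 genes against B-2 cells were the same by both tools. With vomeronasal CPM as a covariate only Csf2rb passed the threshold against B-2 cells, and with all 21 libraries as labelled none of the 9 did. Vomeronasal signal was 45.7 to 156 CPM in B-1a, 65.4 to 314 in B-1b and 158 to 995 in B-2 TET2-KO libraries. Every B-2 library lay above every B-1a library, so the covariate cannot fully part this signal from the subset. The B cell markers summed to 14163 to 24218 CPM in B-1a and 11265 to 18343 in B-2 TET2-KO libraries.

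The chains of the IL-5 receptor were higher in B-1a than in B-2 cells. Csf2rb measured 170, 190, 203 and 221 CPM in the B-1a, 127, 131 and 221 in the B-1b, and 46.4, 48.3, 55.3 and 35.2 in the B-2 TET2-KO libraries. Each of the 7 B-1 libraries lay above each B-2 library. Against B-2 cells the log2 fold change was 2.05 (SE 0.21, edgeR adjusted p = 2.03e-05) for B-1a and 1.75 (SE 0.22, adjusted p = 0.000393) for B-1b cells, or 4.14-fold and 3.35-fold. B-1a and B-1b cells differed by 0.30 (95% interval -0.16 to 0.77), with overlapping libraries.

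Il5ra measured 172, 120, 131 and 131 CPM in B-1a TET2-KO libraries 1 to 4. It measured 134, 85.3 and 132 CPM in the B-1b libraries. In the B-2 libraries it measured 50.02, 47.2, 88.5 and 43.7 CPM. B-2 TET2-KO 3 was the high one, above the lowest B-1b library and below all B-1a libraries. B-1a cells exceeded B-2 cells by a log2 fold change of 1.24 (SE 0.23, edgeR adjusted p = 0.00406), and the difference of B-1b from B-2 cells, 0.99 (SE 0.25, adjusted p = 0.0506), missed the threshold. Leaving out B-2 TET2-KO 2 and 4 ended the B-1a call as well, at 0.98 (edgeR adjusted p = 0.118; range over 20 alternatives 8.99e-07 to 0.246).

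Csf2rb2 was far lower than Csf2rb and stepped down across the subsets. It measured 9.83, 8.16, 9.51 and 16.9 CPM in B-1a, 4.61, 8.03 and 4.02 in B-1b, and 1.74, 1.83, 1.34 and 2.30 in B-2 TET2-KO libraries. No 2 subsets overlapped. Against B-2 cells it differed by a log2 fold change of 2.58 (SE 0.39, edgeR adjusted p = 0.000665) in B-1a and 1.58 (SE 0.40, adjusted p = 0.0543) in B-1b cells. The difference of B-1a from B-1b cells was 1.003 (SE 0.40, edgeR adjusted p = 0.825). In B-2 cells the level of 0.284 to 0.486 CPM per kb was only 0.944 to 3.76 times the vomeronasal level of the same library. With vomeronasal CPM as a covariate the adjusted p for B-1a against B-2 cells was 0.08 (range over 20 alternatives 7.75e-09 to 0.13). Csf2rb and Csf2rb2 are near copies. Of all 100-base stretches, 6.82% of Csf2rb2 and 4.63% of Csf2rb occur in the other gene. Of all 150-base stretches, the length of a read before trimming, 3.34% and 2.3% do. Reads of one may thus have been lost or misassigned, and the Csf2rb2 values are uncertain.

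Myeloid cells also use these chains. In B-1a, B-1b and B-2 TET2-KO libraries in turn, the 14 macrophage markers summed to 5159 to 29740, 6806 to 15741 and 4530 to 20518 CPM, with ranges that overlapped. Most of each sum was Lyz2. The 8 mast cell markers summed to 554 to 870, 257 to 495 and 416 to 891 CPM. The 6 eosinophil markers summed to at most 12.9 CPM in these libraries, nearly all of it Ear2, at up to 12.3 CPM, whereas the granule genes Epx, Prg2 and Ear1 had at most 2 counts in any library. The part of these cells in the differences was not tested.

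**Figure D2:**
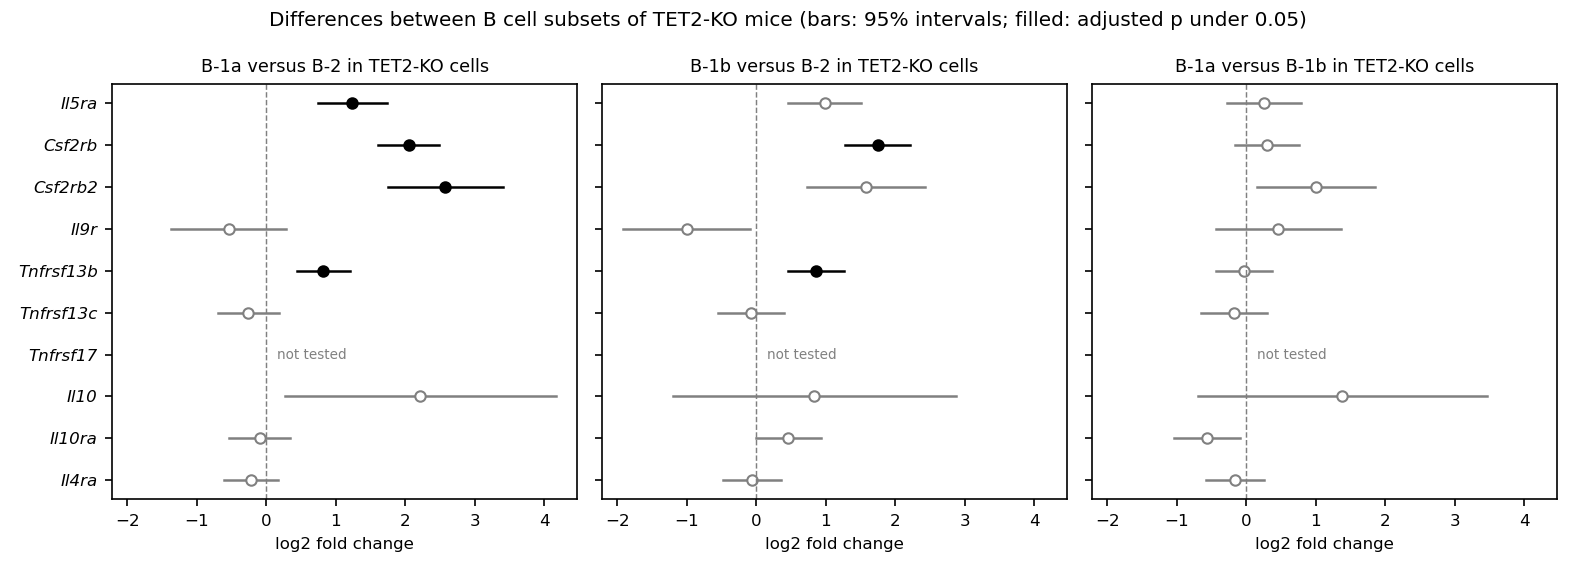
Log2 fold change (horizontal axis) of each gene between pairs of subsets among TET2-KO libraries, with 95% intervals; filled symbols passed an adjusted p under 0.05. Csf2rb and Tnfrsf13b were called against B-2 cells in both B-1 subsets, and the interval of Il10 was the widest in each panel.

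The BAFF receptors parted. Tnfrsf13b (TACI) measured 427, 473, 478 and 425 CPM in the B-1a TET2-KO libraries. It measured 460, 501 and 430 CPM in the B-1b libraries and 231, 246, 329 and 193 in the B-2 libraries. All B-1 libraries lay above all B-2 libraries, and B-1a and B-1b overlapped. TACI transcripts exceeded those of B-2 cells by a log2 fold change of 0.82 (SE 0.18, edgeR adjusted p = 0.0112) in B-1a and 0.86 (SE 0.19, adjusted p = 0.0269) in B-1b cells. Without B-2 TET2-KO 2 and 4 it was 0.67 and 0.71, with edgeR adjusted p of 0.134 and 0.26. Over 20 alternatives each, the adjusted p ranged from 0.000136 to 0.421 for B-1a and from 0.00052 to 0.26 for B-1b cells. Leaving out any 1 of B-1b TET2-KO 1 or 2 or B-2 TET2-KO 1, 2 or 4 also ended the B-1b call, at an adjusted p of 0.116, 0.108, 0.0961, 0.08 and 0.0538.

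Tnfrsf13c (BAFF-R) measured 299, 276, 211 and 184 CPM in the B-1a, 314, 281 and 233 in the B-1b and 279, 257, 377 and 222 in the B-2 TET2-KO libraries. The 3 subsets overlapped. B-1a and B-2 cells differed by -0.25 on the log2 scale (95% interval -0.70 to 0.19) and B-1b and B-2 cells by -0.08 (95% interval -0.55 to 0.40). Tnfrsf17 (BCMA) had at most 26 counts in any library, 1.76 CPM in B-2 TET2-KO 4, which also had the most vomeronasal signal. In 8 libraries it had no count, and a count of 0 allows up to 3 counts, or 0.146 to 0.196 normalized CPM in these 8, counting error only.

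Within a library, the ratio of Tnfrsf13b to Tnfrsf13c does not depend on the scaling. Per kb of gene length it was 1.03, 1.24, 1.64 and 1.67 in B-1a, 1.06, 1.29 and 1.33 in B-1b, and 0.597, 0.692, 0.63 and 0.626 in B-2 TET2-KO libraries. By counts and per kb of all annotated exons, TACI exceeded BAFF-R in every TET2-KO B-1 library and was below it in every TET2-KO B-2 library. The lengths of the transcripts expressed were not measured, so which gene is higher in a library depends on the lengths used. The mean log2 ratio differed by 1.1 between B-1a and B-2 cells (two-sided exact permutation p = 0.0286, the smallest that 4 against 4 allows, adjusted over 6 comparisons 0.171). Between B-1b and B-2 cells it differed by 0.94 (exact permutation p = 0.0571, the smallest that 3 against 4 allows, adjusted 0.171). Of the WT libraries labelled 3 and 4, the 4 B-1 libraries had ratios of 1.38 to 1.56 and B-2 WT 4 had 0.776. B-1a WT 1 at 0.73 and B-1b WT 2 at 0.509 lay with the B-2 libraries, and B-2 WT 1 at 0.941 lay between.

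**Figure D3:**
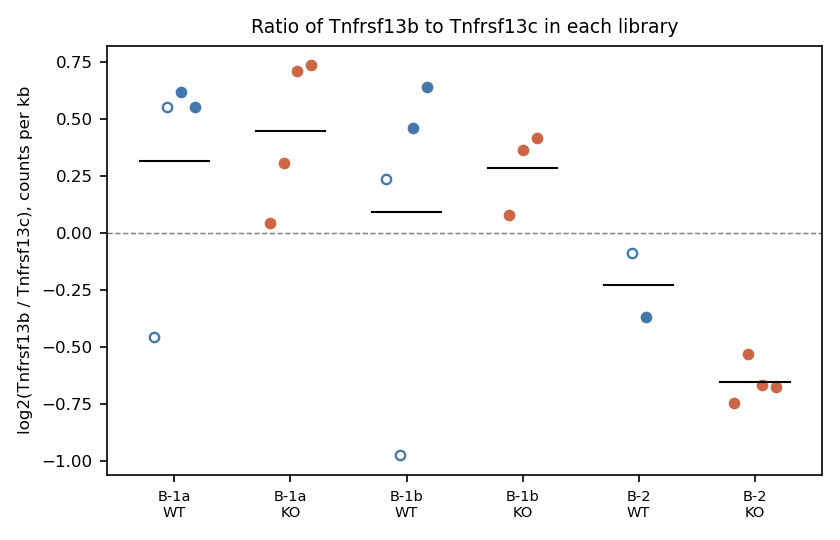
Log2 ratio of Tnfrsf13b to Tnfrsf13c, each as counts per kb (vertical axis), by subset and genotype (KO: TET2-KO). Circles are libraries, open for those labelled WT 1 and WT 2, and bars are means; the 4 B-2 TET2-KO libraries lay between -0.74 and -0.53 and every B-1 TET2-KO library above 0.

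Il10 was scarce. Its counts were 31 to 66 in B-1a, 0 to 29 in B-1b and 6 to 12 in B-2 TET2-KO libraries. In CPM these were 4.16, 2.78, 1.79 and 2.91 in B-1a, 1.71, 1.63 and 0 in B-1b, and 0.60, 0.42, 0.64 and 0.74 in B-2 cells. All B-1a libraries lay above the others, and the library at 0 was B-1b TET2-KO 3. B-1a cells differed from B-2 cells by a log2 fold change of 2.22 (95% interval 0.27 to 4.17, edgeR adjusted p = 0.154). It passed the threshold in 3 of 20 alternatives, at 2.17 without B-1b TET2-KO 3, which enters the shared spread (edgeR adjusted p = 0.0258), at 2.13 by DESeq2 (adjusted p = 0.0374) and at 2.36 over both genotypes without WT 1 and WT 2 (adjusted p = 0.0196). The highest adjusted p among the 20 was 0.999. In B-2 cells the level per kb was 0.788 to 6.53 times the vomeronasal level of the library. Macrophages, which also make IL-10, left marker sums, mostly of Lyz2, of 5159 to 29740 CPM in B-1a and 4530 to 20518 in B-2 TET2-KO libraries. The part of these cells in the Il10 counts was not tested. In bulk samples fewer cells that express a gene and less RNA per cell cannot be told apart.

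Il10ra measured 102, 84.8, 94.2 and 88.4 CPM in B-1a, 112, 111 and 188 in B-1b, and 106, 97.0, 117 and 66.1 in B-2 TET2-KO libraries. B-1a and B-1b libraries did not overlap, and the highest value was that of B-1b TET2-KO 3. B-1a cells differed from B-1b cells by -0.56 (SE 0.22, unadjusted p = 0.0231, edgeR adjusted p = 0.825) and from B-2 cells by -0.10 (95% interval -0.54 to 0.34). Il4ra, the IL-4 receptor chain, measured 98.8, 83.0, 104 and 75.3 CPM in B-1a, 114, 80.1 and 111 in B-1b, and 108, 89.5, 127 and 88.4 in B-2 TET2-KO libraries. Its ranges overlapped in all 3 subsets, and the intervals of the 3 differences lay within -0.61 and 0.36. Reads of Gm44876, an antisense gene, could not be told from those of Il4ra over 571 exon bases, 9.51% of its length, since strand was not used in the counting.

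Il9r varied widely between libraries of the same subset. In libraries numbered 1 to 4 it measured 36.6, 15.5, 47.1 and 83.2 CPM in B-1a and 64.3, 41.1, 81.4 and 71.3 in B-2 TET2-KO cells. In B-1b TET2-KO cells it measured 37.5, 23.1 and 39.4 CPM in libraries 1 to 3. TET2-KO 2 was the lowest and TET2-KO 1 the next in each subset. The libraries labelled WT 4 had 75.8, 96.8 and 121 CPM, and those labelled WT 3 had 23.5 in B-1a and 49.6 in B-1b cells. The labels do not say that a number marks 1 mouse. Il9r differed from its level in B-2 cells by -0.54 (SE 0.38, edgeR adjusted p = 0.416) in B-1a and -0.997 (SE 0.43, adjusted p = 0.224) in B-1b cells, and the B-1b and B-2 libraries did not overlap.

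**Figure D4:**
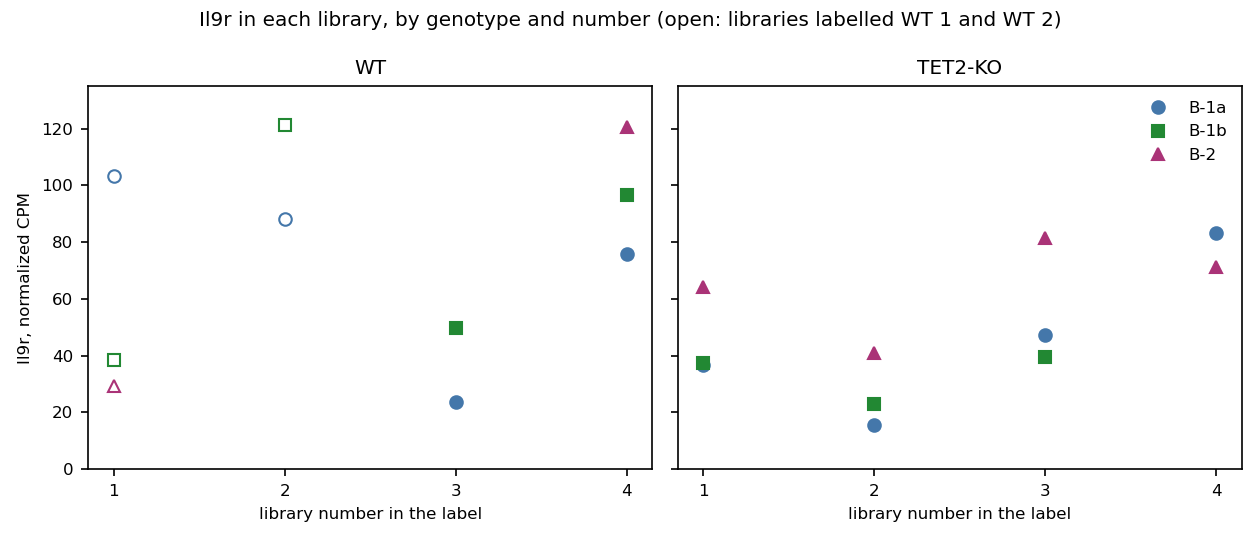
Il9r in normalized CPM (vertical axis, from 0) against the library number in the label (horizontal axis), WT at left and TET2-KO at right. Symbols are libraries by subset, open for those labelled WT 1 and WT 2; TET2-KO 2 was the lowest TET2-KO library in each subset, at 15.5, 23.1 and 41.1 CPM.

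Compared per kb in B-1a TET2-KO cells, Tnfrsf13b had the highest mean level at 159 CPM per kb (SD 10.1, n = 4), followed by Tnfrsf13c at 118 (SD 26.3). These neighbours in the order differed with no overlap between 150 to 169 and 89.9 to 146 CPM per kb. Il5ra followed at 38.7 (SD 6.39), then Csf2rb at 26.9 (SD 2.91) and Il10ra at 26.4 (SD 2.09), and the last pair overlapped. Il4ra at 15.0 (SD 2.23) and Il9r at 9.22 (SD 5.72) overlapped too. Csf2rb2 at 2.34 (SD 0.83) and Il10 at 2.22 (SD 0.74) were within their spread of each other, and Tnfrsf17 was lowest at 0.16 (SD 0.18). In B-2 TET2-KO cells Tnfrsf13c was above Tnfrsf13b, with 139 (SD 32.4, n = 4) against 88.0 CPM per kb (SD 20.2).

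TET2-KO was then compared with WT within each subset, the question for which the libraries were made. None of the genes tested was called. Tnfrsf17 was not tested in any subset, nor Il10 in B-2 cells, since they did not pass the filter on low counts. In B-1a cells 0 of 9 genes tested were called against 0.0503% of all 13923 genes, in B-1b cells 0 of 9 against 0.0% of 14368, and in B-2 cells 0 of 8 against 0.0% of 19786. By edgeR, 1 of 9, 1 of 9 and 3 of 8 had an unadjusted p under 0.05. DESeq2 called 1 of the genes in B-1a cells and none in the other 2 subsets. Among all genes, edgeR called 7, 0 and 0, with 1093, 787 and 1754 at an unadjusted p under 0.05, and DESeq2 called 186, 60 and 169. On simulated counts for the B-1a comparison over 13433 genes, edgeR recovered 31.2% of 2-fold and 76.9% of 4-fold changes.

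The IL-3 receptor chain Csf2rb2 had the smallest p of the 10 genes. In B-1a cells it measured 9.83, 8.16, 9.51 and 16.9 CPM in TET2-KO against 2.77, 5.34, 5.15 and 4.35 in WT libraries. The genotypes did not overlap, and WT 3 and WT 4 lay near WT 2. TET2-KO exceeded WT by a log2 fold change of 1.37 (SE 0.32, unadjusted p = 0.00179, edgeR adjusted p = 0.222). By DESeq2 the adjusted p was 0.00806, and by edgeR with no filter on low counts 0.0166. Leaving out WT 1 and WT 2 gave 0.933 by edgeR, at a log2 fold change of 1.24. Over 16 alternatives the log2 fold change ranged from 1.08 to 1.49 and passed the threshold in 2.

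In B-1b cells Csf2rb2 measured 4.61, 8.03 and 4.02 CPM in TET2-KO against 4.02, 0.907, 1.57 and 3.45 in WT libraries, and B-1b TET2-KO 3 and WT 1 were alike at 4.02. The genotypes differed by 1.19 (SE 0.56, edgeR adjusted p = 0.838), and by 1.15 without WT 1 and WT 2. The difference between its B-1a and B-1b effects was 0.17 (95% interval -1.16 to 1.505). In B-2 cells the sign was the opposite, at -1.40 (SE 0.59, adjusted p = 0.531), where the higher of the WT libraries was B-2 WT 1 at 6.96 CPM. Without that library it was -0.59, and over single libraries left out it ranged from -1.91 to -0.59.

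For the IL-5 receptor, Il5ra measured 68.6, 92.9, 140 and 127 CPM in B-1a WT libraries 1 to 4, with a log2 fold change of 0.40 in TET2-KO (95% interval -0.12 to 0.91) that became 0.06 without WT 1 and WT 2. Csf2rb measured 67.9, 199, 191 and 190 CPM there. Its log2 fold change of 0.31 (95% interval -0.36 to 0.98) became 0.05 without WT 1 and WT 2. Only B-1a WT 1 lay below the TET2-KO range. In B-2 cells Csf2rb measured 193 CPM in WT 1 and 47.6 in WT 4, against 35.2 to 55.3 in TET2-KO. Its log2 fold change of -1.35 (SE 0.45, edgeR adjusted p = 0.531) became -0.02 without B-2 WT 1 and -2.01 without B-2 WT 4, so 1 library set it.

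For the BAFF receptors in B-1a cells, Tnfrsf13b measured 390, 526, 521 and 540 CPM in WT, a difference of -0.10 (95% interval -0.42 to 0.22). Tnfrsf13c measured 385, 259, 245 and 266 CPM in WT, a difference of -0.22 (95% interval -0.66 to 0.22). In both genes WT 1 stood apart from the other 3, and without WT 1 and WT 2 the differences were -0.23 and -0.07. In B-1b cells the differences were -0.07 (95% interval -0.60 to 0.46) for Tnfrsf13b and -0.24 (95% interval -0.71 to 0.22) for Tnfrsf13c, and without those libraries -0.23 and 0.046. In B-2 cells Tnfrsf13b differed by -0.75 (SE 0.30, edgeR adjusted p = 0.531), and by -0.31 without B-2 WT 1. The ratio of the 2 receptors differed between genotypes by 0.13 in B-1a, 0.19 in B-1b and -0.43 in B-2 cells on the log2 scale, with two-sided exact permutation p of 0.714, 0.971 and 0.133. The last is the smallest that 4 against 2 allows. Without WT 1 and WT 2 the first 2 changed sign, to -0.14 and -0.27.

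Il10 measured 0.10, 0.32, 3.45 and 4.45 CPM in B-1a WT libraries 1 to 4, so the libraries labelled WT 1 and WT 2 lay far below the others. Its difference of 0.51 in TET2-KO (95% interval -1.53 to 2.54) became -0.44 without them. In B-1b WT libraries 1 to 4 it measured 4.40, 0.59, 1.57 and 1.86 CPM, and the difference was -0.90 (95% interval -3.49 to 1.69), or -0.62 without WT 1 and WT 2. The intervals hold changes of more than 2-fold in both directions. Il10ra measured 129, 116, 65.8 and 81.5 CPM in B-1a WT libraries, with a difference of -0.05 (95% interval -0.49 to 0.40) that became 0.33 without WT 1 and WT 2. In B-1b cells it differed by 0.46 (95% interval -0.18 to 1.11), and by 0.46 without them as well. In B-2 cells it differed by -0.39, and by -0.19 without B-2 WT 1.

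Il9r measured 38.4, 121, 49.6 and 96.8 CPM in B-1b WT against 23.1 to 39.4 in TET2-KO libraries. WT 1 lay inside the TET2-KO range. The difference was -1.17 (SE 0.40, unadjusted p = 0.0173, edgeR adjusted p = 0.838), and with no filter on low counts the adjusted p was 0.000165 (range over 15 alternatives 0.000165 to 1.0). Without WT 1 and WT 2 the difference was -1.13. In B-1a cells it was -0.62 (95% interval -1.79 to 0.55), or -0.10 without them, and in B-2 cells -0.20, or -0.89 without B-2 WT 1. Il4ra measured 180, 105, 92.9 and 107 CPM in B-1a WT libraries, a difference of -0.39 (95% interval -0.86 to 0.08), and WT 1 was again the one apart. Without WT 1 and WT 2 the Il4ra difference was -0.14 in B-1a and 0.024 in B-1b cells, where it had been -0.27.

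Over the genes tested, the median log2 difference between genotypes was -0.05 in B-1a cells, -0.07 in B-1b cells and -0.52 in B-2 cells, beside 0.02, -0.01 and 0.18 over all genes. Without WT 1 and WT 2 the medians were -0.07, 0.046 and -0.18, beside 0.02, 0.01 and 0.20 over all genes, and in B-2 cells they then rest on 1 WT library.

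The effects of TET2-KO in B-1a and B-1b cells were compared by an interaction term. None of 9 genes was called, against 0.0% of 15972 genes, of which 250 had an unadjusted p under 0.05, and DESeq2 called none of the 9 and 1 gene in all. With all libraries as labelled, the differences ranged from -0.52 for Il10ra to 1.39 for Il10, each with an interval that held 0. Both extremes leaned on WT 1 and WT 2. Without them the effect on Il10 was -0.44 in B-1a and -0.62 in B-1b cells, and that on Il10ra 0.33 and 0.46.

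**Figure D5:**
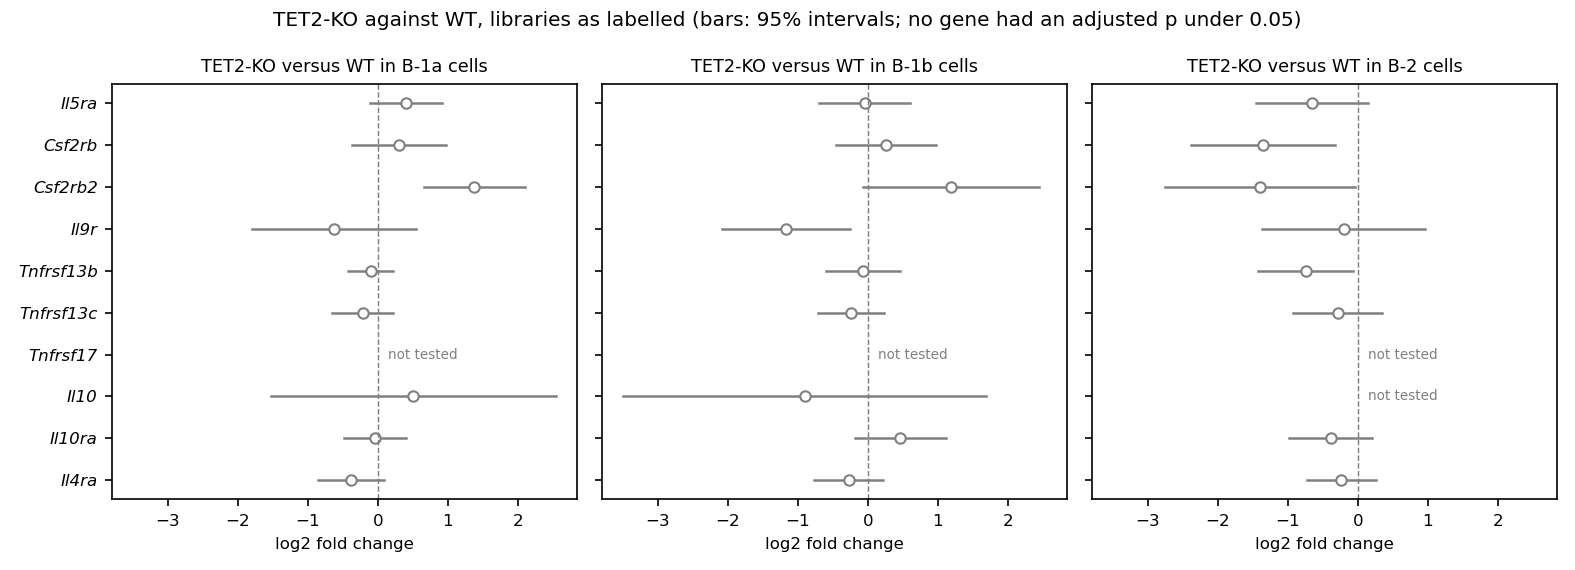
Log2 fold change (horizontal axis) of each gene in TET2-KO against WT within each of the 3 subsets, all libraries as labelled, with 95% intervals. Csf2rb2 in B-1a cells lay at 1.37 (0.65 to 2.09), and no gene passed an adjusted p under 0.05.

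Other genes of these pathways were read from the same fits. Of 56 ligand, signalling and regulator genes, 50 were tested between the subsets. In B-1a against B-2 cells 5 were higher and 2 lower (7 of 50 called, against 5.82% of all genes), with a median log2 fold change of 0.06 against -0.05 over all genes. In B-1b against B-2 cells 1 was higher and 1 lower, against 2.15% of all genes, and in B-1a against B-1b cells 1 was lower, against 0.205%. The lower gene in both was Fcer2a, the gene of the gate marker CD23, which is also among the 7. Its calls against B-2 cells follow the gate. Between B-1a and B-1b cells, both gated low for CD23, it differed by -1.83 (SE 0.33, edgeR adjusted p = 0.0375). None was called between the genotypes by edgeR or DESeq2, with 3, 2 and 1 at an unadjusted p under 0.05 by edgeR in the 3 subsets.

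Among 12 genes of IL-5 and beta common receptor signalling, the survival kinases Pim2 and Pim1, which cytokine receptors induce, were higher in B-1a than in B-2 TET2-KO cells. Pim2 averaged 173 CPM (SD 46.7, n = 4) against 74.3 (SD 30.4, n = 4), a log2 fold change of 1.19 (SE 0.28, edgeR adjusted p = 0.0187). Pim1 averaged 35.5 (SD 7.21) against 18.8 CPM (SD 1.32), a log2 fold change of 0.88 (SE 0.18, edgeR adjusted p = 0.00832). The median over the 12 was 0.37. Of 12 BAFF receptor signalling genes 1 was higher and 1 lower, with a median of -0.08. The higher was Mcl1, an anti-apoptotic protein gene, by a log2 fold change of 0.78 (SE 0.21, edgeR adjusted p = 0.0432), named beside the 6 largest of the comparison. Its libraries held 897 to 1396 CPM in B-1a and 515 to 868 in B-2 cells, with no overlap. The lower was Traf5, an adaptor of TNF receptors, at 45.7 (SD 4.82) against 77.2 CPM (SD 12.1). Its log2 fold change was -0.79 (SE 0.19, edgeR adjusted p = 0.0238).

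Of 10 tested regulators and markers of IL-10 producing B cells 2 were higher in B-1a than in B-2 cells, with a median of 0.41. Bhlhe41, a repressor needed for B-1a cells, averaged 42.8 (SD 22.0) against 8.26 CPM (SD 2.77), a log2 fold change of 2.33 (SE 0.35, edgeR adjusted p = 0.000619). It was also higher in B-1b than in B-2 cells, by a log2 fold change of 1.71 (SE 0.36, edgeR adjusted p = 0.0199). Prdm1, which encodes Blimp-1, averaged 6.69 (SD 1.53) against 1.70 CPM (SD 0.65), a log2 fold change of 1.93 (SE 0.46, edgeR adjusted p = 0.0209). Of 6 IL-10 receptor signalling genes none was called by edgeR or DESeq2, with 1 at an unadjusted p under 0.05 by edgeR and a median of 0.16. Of 7 IL-4 and IL-9 receptor signalling genes 1 was lower, Fcer2a, which encodes CD23. Its difference of -5.94 (SE 0.38) follows the sort, which selected B-1 cells for low CD23, and is no finding.

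The ligands were scarce or without counts. Il5, Il3 and Il9 had no count in any of the 21 libraries, which allows up to 0.146 to 0.212 normalized CPM, and Il13 had 25 counts in 1 B-1b TET2-KO library and none in the others. Csf2 had at most 4 counts and Il4 at most 21. The transcripts of BAFF (Tnfsf13b) and APRIL (Tnfsf13) ranged from 0 to 4.85 and from 0.51 to 4.79 CPM over all libraries, and neither was called in any comparison.

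Over the 21 libraries and 8061 other genes with a mean of at least 10 CPM, the genes whose log2(CPM + 1) followed each of the 10 most closely were found by Pearson correlation. The points share subset, background and depth, so these are descriptions. Csf2rb ran closest to Nacc2 (r = 0.973), Il18 (0.961) and Gpr55 (0.958), and Tnfrsf13b to Cyb561a3 (0.965), Lims1 (0.953) and Evi2a (0.944). Il5ra ran with Prps2 (0.920), Lhpp (0.915) and Tmem154 (0.915). Csf2rb2 ran with Zfp106 (0.866), AU020206 (0.862) and Zeb2 (0.858). Tnfrsf13c ran with Lpxn (0.886), BC035044 (0.880) and Gopc (0.879), and Il4ra with Kdm1b (0.919), B4galnt1 (0.887) and Ankrd13a (0.887). Il10ra ran with Cyth1 (0.872), Rubcn (0.866) and Tbc1d14 (0.816), and Il10 with Smim36 (0.882), Ccdc28b (0.861) and Cd3g (0.853), 1 of 8 T cell markers read. Cd3g measured 13.0 to 36.5 CPM in B-1a and 3.39 to 8.54 in B-2 TET2-KO libraries. Of the other T cell markers Cd28 was lower in B-1a than in B-2 TET2-KO libraries, and the rest overlapped. The part of T cells in the Il10 counts was not tested. For the near-absent Tnfrsf17 the closest were Ube3a (0.838), Zranb1 (0.654) and Parp4 (0.602).

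Il9r stood out in this comparison by position. Its closest gene was Snrnp25 (r = 0.848), which lies 5135 bases away at chromosome 11, 32155415 to 32158984 in GRCm39, beyond the start of Il9r at 32137541 to 32150279 on the minus strand. The next were Ift140 (0.781) and Mindy1 (0.778) on other chromosomes. Among the 10 genes themselves, Il10 and Il10ra had the most negative correlation, at -0.696. Of the other pairs only Tnfrsf13b and Evi2a share a chromosome, and they lie 18377187 bases apart.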

How the data were processed

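Sort-purified cells were lysed, and RNA was extracted with the AllPrep kit and sequenced as ultra-low input bulk libraries. The labels describe poly-T selection, whereas the study's methods describe amplified whole-length cDNA. The authors used fastp for trimming, STAR for alignment to GRCm39 and featureCounts 1.6.1 with GENCODE vM32 for counting. The deposited values are raw counts per gene, and the gene lengths come from the same files. Fragments that map to several places were not counted and strand was not used, per the file headers, which bears on Csf2rb, Csf2rb2 and Il4ra.

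The counts were fitted with edgeR 4.0.16 in R 4.3.3 (TMM, filterByExpr by group, robust quasi-likelihood test), genotypes within each subset and subsets in the 11 TET2-KO libraries. SE is the log2 fold change over the root of the F statistic. Levels are CPM scaled by TMM over 21 libraries. No 2 of the 210 library pairs held identical counts. The ratio was tested by exact permutation in scipy 1.17.1. Alternatives were DESeq2 1.42.0, no filter, other scalings, the replicate block, a vomeronasal covariate and left-out libraries. Those without B-2 TET2-KO 2 and 4 and the block within genotype were added after seeing the data. Other genes were named by rule: at most 6 called pathway genes per comparison with the largest change and no overlap, and the 3 closest by correlation, immunoglobulin genes left out. The 10 genes, the lists and the tests were chosen with earlier results of these data known. The scripts were tested on simulated data.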

Additional observations from a re-analysis of the deposited data

Results flagged for a closer look

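Single libraries that stood apart from the rest of their group were flagged in groups of 4. The gap to the nearest library, over the range of the group, had to exceed Dixon's 95% critical value. Chance flags about 1 in 20 groups, and 44 were examined. In B-2 TET2-KO cells, Il5ra in library 3 was high at 88.5 CPM. In B-1a WT cells, library 1 was flagged for Csf2rb at 67.9 CPM, Tnfrsf13b at 390 CPM, Tnfrsf13c at 385 CPM, Il4ra at 180 CPM and the ratio of Tnfrsf13b to Tnfrsf13c at 0.73. This is a library whose B-2 markers, at 7215 CPM, went against its label.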

How the results depend on the processing

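With DESeq2 the number of the 10 genes called between genotypes went from 0 to 1 in B-1a cells, and with no filter on low counts from 0 to 1 in each of the 3 subsets. Between B-1a and B-2 cells it went from 4 to 1 with the vomeronasal covariate, 2 without B-2 TET2-KO 2 and 4, and 0 with all 21 libraries. Between B-1b and B-2 cells it went from 2 to 4 by DESeq2, with no filter and with the replicate block, to 1 with the covariate and without B-2 TET2-KO 2 and 4, and to 0 with all 21 libraries. Of all genes, those called between genotypes in B-1a cells went from 7 to 186 by DESeq2, 318 with no filter, 48 with the replicate block, 3 with the covariate, 0 without WT 1 and WT 2 and 80 in 1 fit of 6 groups. In B-1b cells they went from 0 to 60 by DESeq2 and 131 with no filter, and in B-2 cells from 0 to 169 and 167. Between B-1a and B-2 cells the count went from 1080 to 3478 by DESeq2, 1699 with no filter, 1638 with the replicate block, 270 with the covariate, 428 without B-2 TET2-KO 2 and 4, 22 with all 21 libraries and 3153 over both genotypes without WT 1 and WT 2. In the same order it went from 399 to 2872, 870, 667, 128, 112, 0 and 1330 between B-1b and B-2 cells, and from 38 to 141, 123, 103, 20, 24, 0 and 100 between B-1a and B-1b cells. For the interaction it went from 0 to 1 by DESeq2, 144 with no filter and 1 with a replicate block within genotype. Leaving out 1 library gave 0 to 6 genes in B-1a and 0 to 576 in B-2 cells between genotypes (0 to 1 of the 10, the highest without B-2 WT 4). It gave 608 to 2015 between B-1a and B-2 cells (4 to 5 of the 10, the highest count without B-1b TET2-KO 3), 177 to 768 between B-1b and B-2 cells (1 to 4 of the 10) and 15 to 57 between B-1a and B-1b cells. The cause was not tested.

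Signs turned only in differences that had missed the threshold. With the covariate, TET2-KO minus WT became -0.092 for Il10 and 0.29 for Il10ra in B-1a cells, 0.10 for Il5ra and 0.033 for Tnfrsf13c in B-1b cells, and 0.11 for Il5ra, 0.12 for Csf2rb and 0.15 for Tnfrsf13c in B-2 cells. Il10 between B-1b and B-2 cells became -0.10 with it. Without WT 1 and WT 2 it became -0.44 for Il10 and 0.33 for Il10ra in B-1a cells, 0.095 for Il5ra, 0.046 for Tnfrsf13c and 0.024 for Il4ra in B-1b cells, and the ratio became -0.14 in B-1a and -0.27 in B-1b cells. With the replicate block it became 0.081 for Il5ra and 0.066 for Tnfrsf13b in B-1b and 0.21 for Il9r in B-2 cells, and Tnfrsf13b became 0.030 between B-1a and B-1b cells. Over single libraries left out, the genotype difference ranged from -0.19 to 0.10 for Il10ra in B-1a cells, in B-1b cells from -0.19 to 0.18 for Il5ra, -0.067 to 0.40 for Csf2rb and -0.245 to 0.024 for Tnfrsf13b, and from -0.89 to 1.19 for Il9r in B-2 cells, the last without B-2 WT 4. Tnfrsf13c ranged from -0.17 to 0.0008 and Il4ra from -0.16 to 0.10 between B-1b and B-2 cells, Tnfrsf13b from -0.088 to 0.037 between B-1a and B-1b cells, and the ratio between genotypes from -0.13 to 0.27 in B-1a and -0.16 to 0.38 in B-1b cells. Of the other alternative values for single genes, 408 kept direction and side of the threshold, 13 newly passed it and 13 no longer did, and over single libraries left out these were 457, 6 and 5.

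The labels do not say that equal numbers mark 1 mouse. Libraries with equal numbers correlated, as deviations from their group means, at -0.115 to 0.176 between TET2-KO subsets and -0.193 to 0.366 between genotypes. These are the groups compared directly, so the block was not used in the main fits. Between WT subsets they correlated at 0.274 to 0.59. Of these, B-1a and B-1b WT, at 0.274 to 0.39, enter the interaction term, whose main fit left this likeness out. With a replicate block within genotype, added after seeing the data, the interaction called 1 gene in all. Without WT 1 and WT 2 only 1 B-2 WT library remains, its spread is taken from the TET2-KO libraries, and the ratio could not be tested there. Il10, Tnfrsf17 and, in B-2 cells, Csf2rb2 are limited by counts of at most 66, 26 and 34 in TET2-KO libraries.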
